A study of Mus musculus with 198 samples.

Results

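Control liver was compared with 8 other tissues of the same mice, to find which genes were read at a higher level in liver than anywhere else that was sampled. The members were the 12 liver libraries of the control group, out of 198 libraries in the study. A gene was counted as a liver gene when its level was higher in liver than in each of kidney, gonadal fat, subscapular fat, skin, lung, heart, spleen and bone marrow, with tissues paired by mouse. Of 56332 genes in the count table, 8271 could be tested in all 8 comparisons and 1168 of them (14.1%) were liver genes by this rule.

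The study gave C57BL/6 mice an anti-PAPP-A antibody or a control treatment for 17 weeks and then took 9 tissues from each animal for RNA-seq. PAPP-A is a protease that cuts insulin-like growth factor binding proteins, which sets free the growth factors they hold. There were 10 anti-PAPP-A mice (5 females and 5 males) and 12 control mice (6 females and 6 males). The labels do not say what the control mice received, nor the age of the animals. Every library was made from RNA of a whole tissue, so a level is an average over all cell types of the piece taken, and fewer cells of a type cannot be told apart from less RNA per cell.

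The liver is the main source of plasma proteins, among them albumin, apolipoproteins, clotting factors and complement. Its hepatocytes also make urea and bile acids, keep blood glucose up during fasting, break down amino acids and clear drugs and steroids through cytochrome P450 and conjugating enzymes. In mice many of these genes differ between the sexes, a pattern that follows the rhythm of growth hormone release.

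The control liver libraries held 6993724 to 14628794 counts. The 9 most abundant features, ribosomal RNA genes among them, took 70.9 to 96.1% of these, which left 479445 to 2191487 counts for all other genes (median 1093084). Levels are given as CPM, counts scaled to 1000000 counts of this remainder after its size was adjusted by a factor for each library (TMM, described below). A CPM is therefore not a share of the usable counts. The lung library of mouse 68 and the heart library of mouse 22 were left out of the comparisons, so lung and heart were compared in 11 mice and the other tissues in 12. Liver transcripts were also counted at a low level in some other libraries. In the lung library of mouse 61, Alb, Cps1 and Fgb, which encode albumin, a urea cycle enzyme and a fibrinogen chain, stood at 2.79%, 2.77% and 3.06% of their level in the liver of the same mouse. In the 11 lung libraries the median was 0.594% for Alb, 0.631% for Cps1 and 0.602% for Fgb, whereas bone marrow had no count of these genes in 12 libraries. The summed fibrinogen chains reached 1% of the level in the same mouse's liver in 3 libraries, the lung of mouse 61 (3.04%) and the gonadal fat of mice 37 (1.58%) and 55 (1.07%). What part these counts played in the differences from lung and fat was not tested. Without the 3 libraries, an alternative chosen after seeing the data, 1164 liver genes were called, of which 1162 were the same genes. The other lung libraries, which also held these transcripts, stayed in, so this alternative cannot show that part.

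The liver of female mouse 4 stood apart, with the lowest level of the 12 livers for 123 of the 217 liver genes in the lists. The markers matched the label of the tissue. Albumin held 3.65 to 10.1% of the usable counts of every control liver (median 5.55%). Defining genes of other tissues were at or near 0: the summed level of 7 cardiomyocyte genes was 5.04 to 28.5 CPM in the 12 livers, of 6 lung epithelial genes 3.03 to 26.7 CPM, of 6 keratinocyte genes 0.806 to 10.4 CPM, of 6 skeletal muscle genes 4.03 to 14.3 CPM, of 5 B cell genes 1.68 to 14.3 CPM, of 7 neutrophil genes 0 to 7.42 CPM and of 7 exocrine pancreas genes 1.58 to 12.1 CPM. The 7 adipocyte genes summed to 665 to 4822 CPM, nearly all of it Car3 (657 to 4792 CPM), a carbonic anhydrase that hepatocytes also make, while Adipoq stayed at 0 to 5.64 CPM and Plin1 at 0 to 4.84 CPM. The 8 kidney tubule genes summed to 20.2 to 80.6 CPM, with Nphs1, which is a podocyte gene, at 0.806 to 55.3 CPM (median 42.4), and Umod and Aqp2 were at 0 to 4.45 CPM and at 0. Of blood cell markers, 6 erythroid genes summed to 461 to 1923 CPM, and the haemoglobin gene Hbb-bs had 162 to 871 CPM in liver, against a mean of 7133 CPM in heart.

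Set against each tissue alone, between 29.2% and 41.9% of the tested genes were higher in liver. The test was edgeR's quasi-likelihood test with the mouse as a block, and a gene was called at an adjusted p below 0.05 over all genes tested. Against kidney 3018 of 10325 genes (29.2%) were higher and 3127 (30.3%) lower, and against subscapular fat 2974 of 10080 (29.5%) were higher and 2862 (28.4%) lower. Gonadal fat gave 3547 of 10294 genes higher (34.5%) and 3473 lower (33.7%). Heart gave 3603 of 10527 higher (34.2%) and 3679 lower (34.9%), and lung 4139 of 11630 higher (35.6%) and 4346 lower (37.4%). The largest shares of calls came from skin, with 3504 of 9406 genes higher (37.3%) and 3510 lower (37.3%), from spleen, with 4000 of 10091 higher (39.6%) and 3970 lower (39.3%), and from bone marrow, with 4452 of 10635 higher (41.9%) and 4404 lower (41.4%). All 8 comparisons use the same liver libraries and are not independent of each other.

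These counts rest on TMM factors, which scale each library by the bulk of its genes, with the 9 abundant features kept in. The median log2 difference of all genes was -0.03 to 0.00 in this main scaling. Where levels were scaled to whole libraries alone, without these factors, it moved to between -0.61 (skin) and -1.58 (lung). With TMM factors and the 9 features left out, it was -0.14 (spleen) to 0.01 (heart). In that alternative 1202 of 8546 genes were higher in liver than in all 8 tissues. In the main scaling 48.8 to 51% of the calls were higher in liver. In the scaling to whole libraries the larger part were lower, with 862 genes higher and 2713 lower against kidney, 1052 and 6440 against gonadal fat, 1169 and 6068 against subscapular fat, 1703 and 3503 against skin, 1049 and 9176 against lung, 1333 and 4784 against heart, 1669 and 3508 against spleen, and 1749 and 5587 against bone marrow. Under that scaling 437 genes were higher in liver than in all 8 tissues, 436 of them among the 1168, and 288 were at least 4-fold higher. The differences given from here on are relative to the median gene.

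A wide margin was common among the liver genes. At least 2-fold higher than every other tissue were 659 genes (7.97% of those tested) and at least 4-fold higher were 392 (4.74%). In 676 genes (8.17%) the level in liver was above that of every other tissue of the same mouse in each of the 12 mice, and 387 of the 392 genes with a 4-fold margin were among them. Together the 392 genes held 25.4 to 38.6% of the usable liver counts (median 34.6%), against at most 2.9% in any library of another tissue. Lower in liver than in all 8 tissues were 332 genes (4.01%). The median over all 8271 genes of the smallest of the 8 log2 differences was -0.70, which is the value each gene group is set beside.

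**Figure D1:**
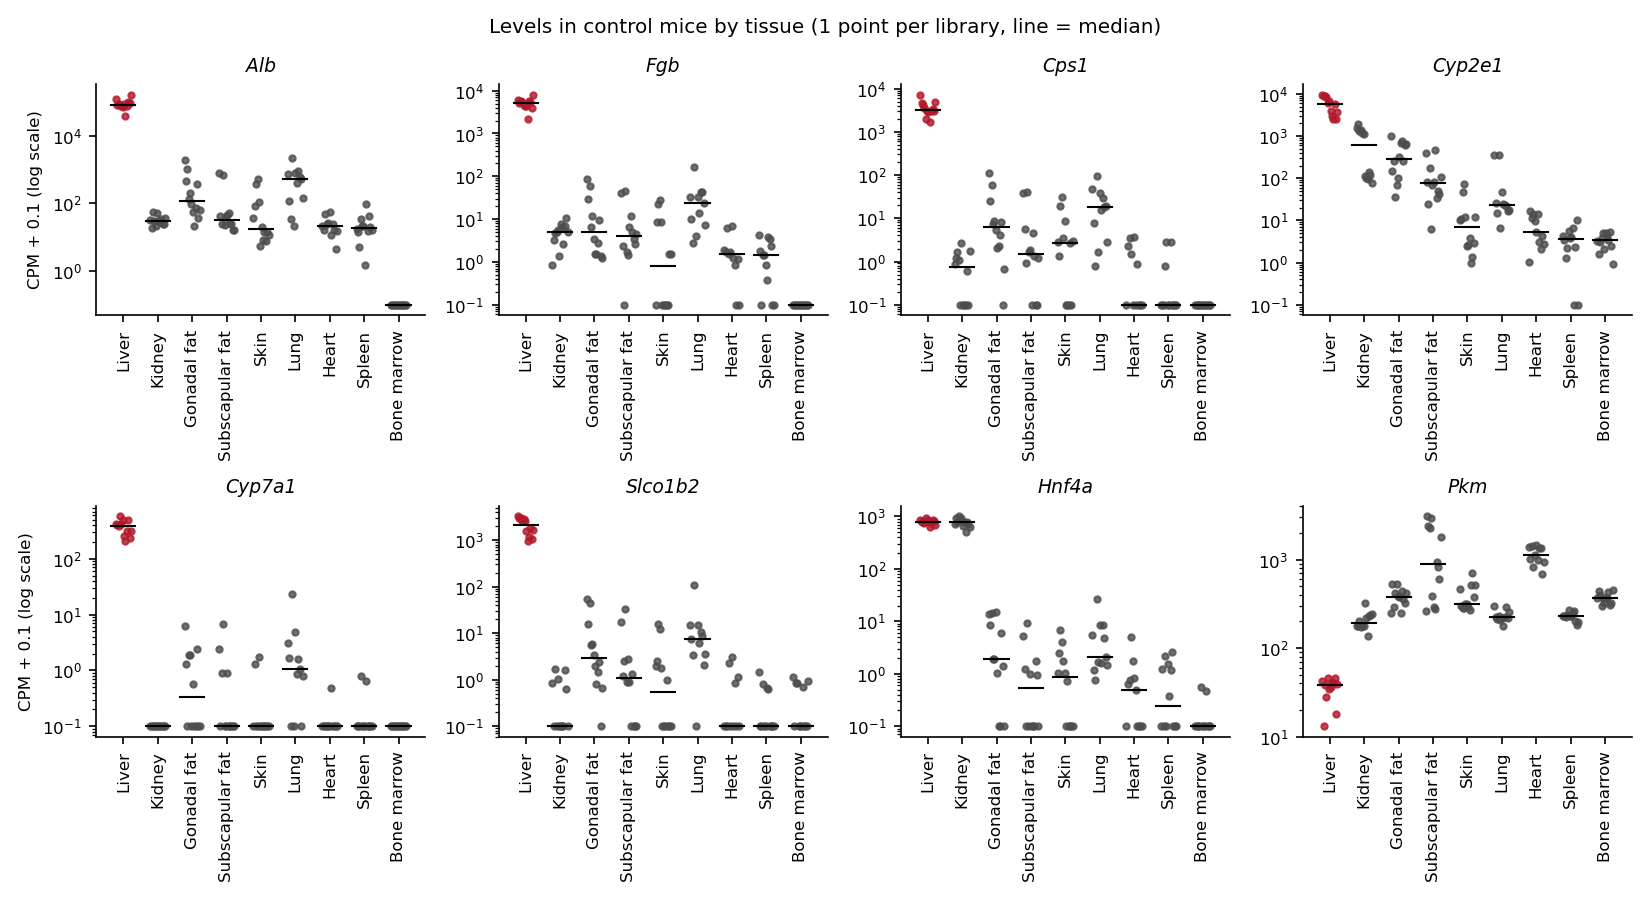
Levels of 8 genes in control libraries of 9 tissues, in CPM plus 0.1 on a log axis, with 1 point per library and a line at the median of each tissue. In liver Alb lay between 37361 and 159165 CPM and Cyp7a1 between 209 and 573 CPM, above every library of the other tissues, whereas Hnf4a reached the same range in kidney and Pkm was lowest in liver at 13 to 46.4 CPM.

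Nearly all plasma carrier and transport proteins were liver genes with a wide margin. All 25 listed genes were counted, 24 could be tested, and 24 were higher in liver than in all 8 tissues, 23 of them at least 4-fold, with a median smallest difference of 7.28 on the log2 scale. A gene that is read in liver alone passes the filter on low counts through its liver libraries, so the counts of such lists are descriptions and no test is drawn from them. Albumin (Alb, ENSMUSG00000029368.10, chr5:90460897-90476602 on the plus strand of GRCm38), the main protein of plasma, had 37361 to 159165 CPM in liver (median 82465). The highest level elsewhere was in lung, at 20.6 to 2194 CPM (median 525), so no lung library came near any liver library. Liver exceeded lung by 8.11 ± 0.69 on the log2 scale (SE taken from the test statistic, 11 mice, edgeR adjusted p = 5.74e-09). In bone marrow no Alb count was read in 12 libraries, which allows at most 0.166 CPM (3 counts over the group, counting error only) and puts liver at least 534552-fold higher. Per kilobase of exon, and among the genes of the lists used here, Alb came first with 35211 CPM at the median liver, ahead of Apoa2 (10158 CPM per kilobase), a protein of high density lipoprotein, and of Trf (7955 CPM per kilobase), the iron carrier transferrin.

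Transferrin and the large apolipoprotein of very low density lipoprotein had a second site. Trf had 10693 to 31104 CPM in liver (median 26410), against 1262 to 2894 CPM in gonadal fat (median 1772), a difference of 3.75 ± 0.21 (edgeR adjusted p = 2.74e-11). Apob had 9932 to 40084 CPM in liver (median 30549), against 724 to 2332 CPM in kidney (median 1352), a difference of 4.25 ± 0.26 (edgeR adjusted p = 1.39e-10). The ranges did not touch in either gene. Selenop, which carries selenium to other tissues, had 3563 to 12161 CPM in liver, against 934 to 2846 CPM in gonadal fat, and Apoe, which returns lipoprotein remnants to the liver, had 8802 to 16561 CPM in liver, against 899.8 to 2056 CPM in gonadal fat. The smallest margin in the list was that of Apom, another high density lipoprotein protein, at 1.58 ± 0.15 over kidney. The haem carrier Hpx and Serpina1b, an alpha-1 antitrypsin gene, had smallest differences of 7.98 ± 0.63 and 8.12 ± 0.56, each against lung. The Serpina1 genes are near-identical copies, so how counts were divided among them is uncertain.

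Promoter sequences were examined to show what letters liver genes share just before their start. The letters GTTAATNAT, known from promoters of liver genes, were searched on both strands of 300 bases around each RefSeq gene start (250 before and 50 after, GRCm38.p6). A longer form of the motif, of 13 letters, was found in 3 of 27025 promoters and in none of the genes tested, so the shorter form was taken after this was seen. It was present in 254 of all 27025 promoters (0.94%) and in 47 of the 6066 tested genes that had a promoter in the table (0.775%). Among liver genes it was present in 30 of 877 (3.42%), among those with a 4-fold margin in 17 of 279 (6.09%), and among genes lower in liver in 0 of 265. The letters CAAAGTCCA, known from binding of the nuclear receptor HNF4, were found in 13 of the 877 (1.48%), against 35 of the 6066 (0.577%), and in 2 of the 265 genes lower in liver (0.755%). A match describes the letters alone and says nothing of binding. Shown here are the 120 bases before the start of 4 liver genes with a match, with the matching letters in capitals, for albumin (chr5:90460750-90460869, plus strand, match at bases -32 to -24), the vitamin D carrier Gc (chr5:89457899-89458018, minus strand, -52 to -44), the fibrinogen alpha chain Fga (chr3:83026033-83026152, plus strand, -46 to -38, on the reverse strand) and the bile acid and drug importer Slco1b2 (chr6:141629398-141629517, plus strand, -66 to -58).
Alb: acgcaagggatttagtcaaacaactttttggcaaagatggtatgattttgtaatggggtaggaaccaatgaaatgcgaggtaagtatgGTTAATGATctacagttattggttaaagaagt
Gc: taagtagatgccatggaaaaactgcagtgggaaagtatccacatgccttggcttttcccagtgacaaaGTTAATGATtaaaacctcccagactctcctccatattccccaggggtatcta
Fga: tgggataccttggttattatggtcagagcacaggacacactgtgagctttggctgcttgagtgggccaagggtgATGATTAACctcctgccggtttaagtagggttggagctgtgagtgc
Slco1b2: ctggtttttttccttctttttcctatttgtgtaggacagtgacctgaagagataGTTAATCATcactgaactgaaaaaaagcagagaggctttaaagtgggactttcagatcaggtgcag

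The 4 genes printed above had median levels of 82465 CPM (Alb), 8410 CPM (Gc), 6016 CPM (Fga) and 2164 CPM (Slco1b2) in control liver. Slco1b2 had 979 to 3217 CPM in liver, against 0 to 109 CPM in lung (median 7.48), its closest tissue, and the libraries did not overlap.

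All 20 clotting and fibrinolysis genes were tested and were higher in liver than in all 8 tissues, 19 of them at least 4-fold, with a median smallest difference of 6.66. Fgb, the fibrinogen beta chain, had 2235 to 7921 CPM in liver (median 5269), against 2.71 to 164 CPM in lung (median 23.8), a difference of 7.93 ± 0.51 (edgeR adjusted p = 1.16e-10). The clotting factors F2, F9 and F12 were 7.72 ± 0.48, 7.23 ± 0.30 and 7.24 ± 0.40 above lung. F5 and F10 had bone marrow as the closest tissue, at means of 128 and 37.2 CPM, and were 3.53 ± 0.13 and 3.69 ± 0.12 above it. F13b, the carrier subunit of factor XIII, was the exception to the wide margins: it had 119 to 348 CPM in liver (median 278), against 72.4 to 176 CPM in kidney (median 146), a difference of 0.92 ± 0.14 (edgeR adjusted p = 1.82e-05). Its liver and kidney ranges overlapped, and the liver level was the highest of the tissues in 11 of 12 mice.

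The complement genes tested in all 8 comparisons were liver genes. Of 20 genes 18 were tested and 18 were higher in liver than in all 8 tissues, 13 at least 4-fold, with a median of 4.41. The number higher was 14 when scaled to whole libraries, with a median of 3.86. C3, the component on which all routes of complement meet, had 9853 to 16912 CPM in liver (median 14981), against 1751 to 2727 CPM in gonadal fat (median 2196), a difference of 2.72 ± 0.17 (edgeR adjusted p = 6.22e-11). Gonadal fat was also the closest tissue for C4b (1.25 ± 0.14), Cfb (2.18 ± 0.15), C1ra (1.44 ± 0.12) and C1s1 (1.20 ± 0.14), which act early in the cascade. Of the membrane attack complex, C8b had 38 to 432 CPM in liver and a mean of 1.63 CPM in lung, and C9 had 83.9 to 558 CPM in liver and a mean of 1.93 CPM in skin. Hc, which encodes C5, had 923 to 2406 CPM in liver and a mean of 742 CPM in lung, and was still a liver gene. C6 was not tested in all comparisons, with 9.5 to 321 CPM in liver (median 96.1), against 32.7 to 91.1 CPM in lung (median 44.9).

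Among 15 acute phase genes 11 were tested and 8 were higher in liver than in all 8 tissues, each at least 4-fold. The pentraxins Crp and Apcs were 5.78 ± 0.16 and 6.96 ± 0.39 above their closest tissues, bone marrow and lung, and the iron hormone hepcidin (Hamp) was 6.40 ± 0.64 above heart. Haptoglobin (Hp), which binds free haemoglobin, did not pass against gonadal fat: it had 2189 to 6526 CPM in liver (median 3961), against 347 to 6585 CPM in gonadal fat (median 4166), a difference of 0.56 ± 0.31 (edgeR adjusted p = 0.124). The range of liver lay within that of gonadal fat. Lbp, which hands bacterial lipopolysaccharide to its receptors, was lower in liver than in gonadal fat by a difference of -0.48 ± 0.21 (edgeR adjusted p = 0.0483), and the metallothionein Mt1 was lower than in heart by -0.73 ± 0.23 (edgeR adjusted p = 0.0105). Saa1, Orm2, Lcn2 and Mt2 did not pass the filter on low counts in every comparison.

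All 10 urea cycle genes were tested, 9 were higher in liver than in all 8 tissues, 5 at least 4-fold, with a median of 3.20. Scaled to whole libraries 5 were higher than in all 8, with a median of 2.68. Cps1, which makes carbamoyl phosphate at the entry to the cycle, had 1714 to 7118 CPM in liver (median 3248), against 0.677 to 96.2 CPM in lung (median 18.2), a difference of 7.81 ± 0.56 (edgeR adjusted p = 5.56e-10). Otc, the next enzyme, was 6.98 ± 0.29 above lung, Nags, which makes the activator of Cps1, was 6.62 ± 0.31 above heart, and Arg1, which releases urea, was 5.06 ± 0.26 above skin. Ass1, which joins citrulline and aspartate, had 662 to 1998 CPM in liver (median 1158), against 836 to 1788 CPM in kidney (median 1401), a difference of -0.19 ± 0.14 (edgeR adjusted p = 0.273). Liver was above kidney in 5 of 12 mice. Asl, the enzyme after it, was 1.34 ± 0.09 above kidney.

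Of the genes of gluconeogenesis, glycogen and hexose metabolism all 14 were tested, 10 were higher in liver than in all 8 tissues and 5 at least 4-fold, with a median of 1.27. Scaled to whole libraries 5 were higher, 3 at least 4-fold, with a median of 0.43. The 4 that missed were Pck1, G6pc and Slc37a4, not called higher than in kidney, and Pcx, not called against subscapular fat (0.27 ± 0.23, edgeR adjusted p = 0.349). Gckr, a regulatory protein of glucose use in hepatocytes, was 7.16 ± 0.31 above lung, and the pyruvate kinase of liver, Pklr, was 4.82 ± 0.20 above kidney. Fbp1, a fructose-bisphosphatase of gluconeogenesis, had 831 to 2479 CPM in liver (median 1538), against 454 to 1203 CPM in kidney (median 920.5), a difference of 0.77 ± 0.12 (edgeR adjusted p = 3.53e-05). Liver was above kidney in 11 of 12 mice for this gene although the group ranges overlapped. Glucose-6-phosphatase (G6pc), the last step of glucose release, had 333 to 906 CPM in liver, against 402 to 887 CPM in kidney, a difference of 0.05 ± 0.15 (edgeR adjusted p = 0.783). Pck1, the committing enzyme of gluconeogenesis, had 199.6 to 2230 CPM in liver (median 505), against 1366 to 4898 CPM in kidney (median 2730), a difference of -2.17 ± 0.30 (edgeR adjusted p = 6.05e-06). Liver was also below subscapular fat for Pck1, at -1.49 ± 0.31 (edgeR adjusted p = 0.000603).

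**Figure D2:**
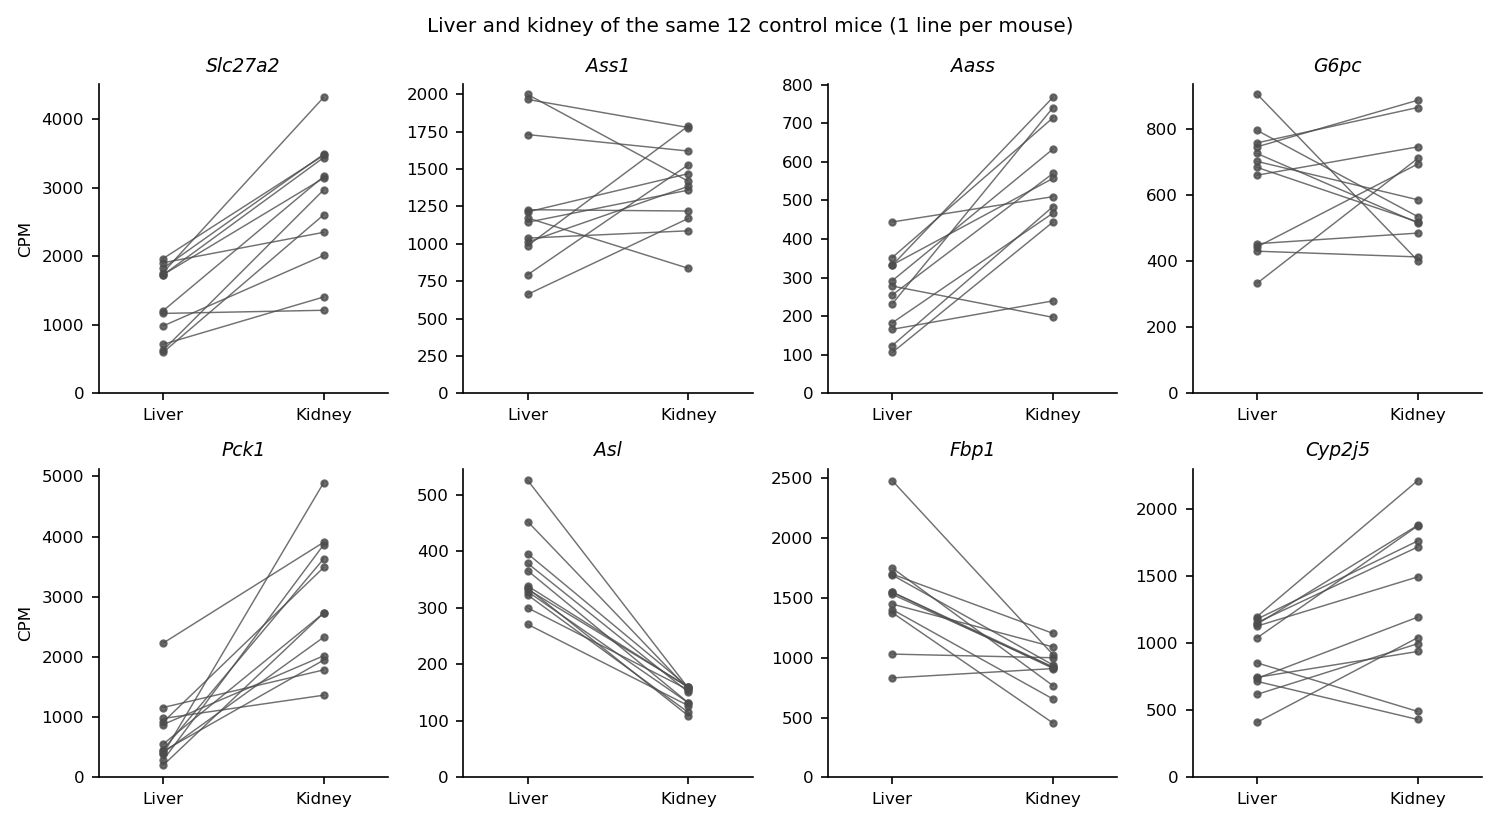
Levels in CPM of 8 metabolic genes in liver (left) and kidney (right) of the 12 control mice, on linear axes from 0, with 1 line per mouse. The lines of Slc27a2 and Pck1 run upwards to kidney in 12 mice, those of Asl and Fbp1 downwards in 12 and 11 mice, and those of Ass1 and G6pc run both ways, with liver above kidney in 5 and 6 of 12 mice.

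Genes of amino acid breakdown were mostly liver genes. Of 26 genes 25 were tested, 21 were higher in liver than in all 8 tissues and 14 at least 4-fold, with a median of 2.66. The number higher was 14 when scaled to whole libraries, with a median of 2.02. Mat1a and Gnmt, which make and use the methyl donor S-adenosylmethionine, were 7.22 ± 0.34 above lung and 6.78 ± 0.18 above kidney, and Tat and Tdo2, which open the breakdown of tyrosine and tryptophan, were 6.98 ± 0.45 and 6.70 ± 0.34 above lung. Aass, the first enzyme of lysine breakdown, was lower in liver than in kidney by -1.03 ± 0.16 (edgeR adjusted p = 3.03e-05). Histidine ammonia lyase (Hal) had skin as its rival, with 116 to 501 CPM in liver and a mean of 288 CPM in skin, a difference of -0.42 ± 0.24 (edgeR adjusted p = 0.112).

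Bile acid genes had a median smallest difference of 6.22, with 18 of 21 tested, 16 higher in liver than in all 8 tissues and 15 at least 4-fold. Cyp7a1, the rate-limiting enzyme of bile acid synthesis, had 209 to 573 CPM in liver (median 393), against 0 to 23.5 CPM in lung (median 0.959), higher in liver by edgeR (SE of the log2 difference 0.38, adjusted p = 1.27e-11). No Cyp7a1 count was read in 12 kidney and 12 bone marrow libraries, which puts liver at least 2216-fold and 2267-fold above them (3 counts over each group). The export pump Abcb11 and the importer Slc10a1 were 7.62 ± 0.44 above lung and 6.41 ± 0.24 above skin, and Abcg5 and Abcg8, the partners that form the sterol exporter, were 6.84 ± 0.31 above subscapular fat and 6.99 ± 0.23 above gonadal fat. Abcc2, which exports conjugates into bile and is known from kidney too, was 1.08 ± 0.12 above kidney. Slc27a2, an acyl-CoA synthetase of very long chain fatty acids and bile acids, had 598 to 1968 CPM in liver (median 1467), against 1214 to 4324 CPM in kidney (median 3058), a difference of -1.07 ± 0.15 (edgeR adjusted p = 8.12e-06). In 0 of 12 mice was liver the tissue with the highest level of this gene.

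Of 27 cytochrome P450 genes of drug and steroid metabolism 23 were tested, 20 were higher in liver than in all 8 tissues and 18 at least 4-fold, with a median of 6.90. Cyp2e1, which oxidises ethanol and small solvents, had 2534 to 9425 CPM in liver (median 5875), against 78.2 to 1883 CPM in kidney (median 615), a difference of 3.75 ± 0.39 (edgeR adjusted p = 1.85e-07). Cyp1a2 and Cyp3a11, which clear aromatic amines and many drugs, were 7.05 ± 0.34 and 7.99 ± 0.42 above lung. Cyp2f2, known from the club cells of the mouse airway, had 166 to 663 CPM in liver (median 409), against 529.8 to 1634 CPM in lung (median 1462), a difference of -1.74 ± 0.22 (edgeR adjusted p = 1.28e-06). Cyp2j5 was lower in liver than in kidney by -0.46 ± 0.15 (edgeR adjusted p = 0.0146), and Por, the reductase that feeds electrons to all these enzymes, was not called against kidney, subscapular fat or lung. Genes of the Cyp2c, Cyp2d, Cyp3a and Cyp4a families are close copies of each other, and counts may have been divided among them.

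Conjugating enzymes were liver genes in the larger part, with 18 of 23 tested, 14 higher in liver than in all 8 tissues, 9 at least 4-fold and a median of 2.14. The number higher was 11 when scaled to whole libraries, with a median of 0.85. The glucuronosyltransferases Ugt2b5 and Ugt2b1 were 7.59 ± 0.29 above kidney and 7.32 ± 0.31 above lung. The glutathione transferases Gsta3 and Gstm1 were 3.48 ± 0.17 and 2.29 ± 0.12 above lung. Kidney had more Sult1d1 (-1.72 ± 0.16), Ugt3a2 (-0.84 ± 0.18) and Glyat (-0.66 ± 0.12) than liver, all called.

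Some transcription factors of hepatocytes were liver genes and others were not called against kidney or fat. Of 25 genes 21 were tested, 15 were higher in liver than in all 8 tissues, 8 at least 4-fold, and the median was 1.00. Scaled to whole libraries 9 were higher than in all 8, with a median of 0.40. Hnf4a, a nuclear receptor needed for hepatocyte identity, had 626 to 950.4 CPM in liver (median 790.1), against 502 to 998 CPM in kidney (median 778), a difference of 0.06 ± 0.11 (edgeR adjusted p = 0.669). Its ranges overlapped between these tissues, and its level in lung was 0.677 to 26.1 CPM. Cebpa, which liver and fat both use, was not called against subscapular fat (0.05 ± 0.21, edgeR adjusted p = 0.851) or gonadal fat (0.14 ± 0.18, edgeR adjusted p = 0.505). Wide margins were found for Creb3l3 (7.17 ± 0.36 over lung), a factor tethered in the endoplasmic reticulum, for Onecut1 (6.55 ± 0.28 over gonadal fat) and Onecut2 (6.04 ± 0.14 over bone marrow), and for Foxa3 (5.87 ± 0.33 over lung). The receptors of drugs, Nr1i2 and Nr1i3, were 3.11 ± 0.24 above kidney and 4.29 ± 0.38 above gonadal fat, and the bile acid receptor Nr1h4 was 1.00 ± 0.14 above kidney.

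**Figure D3:**
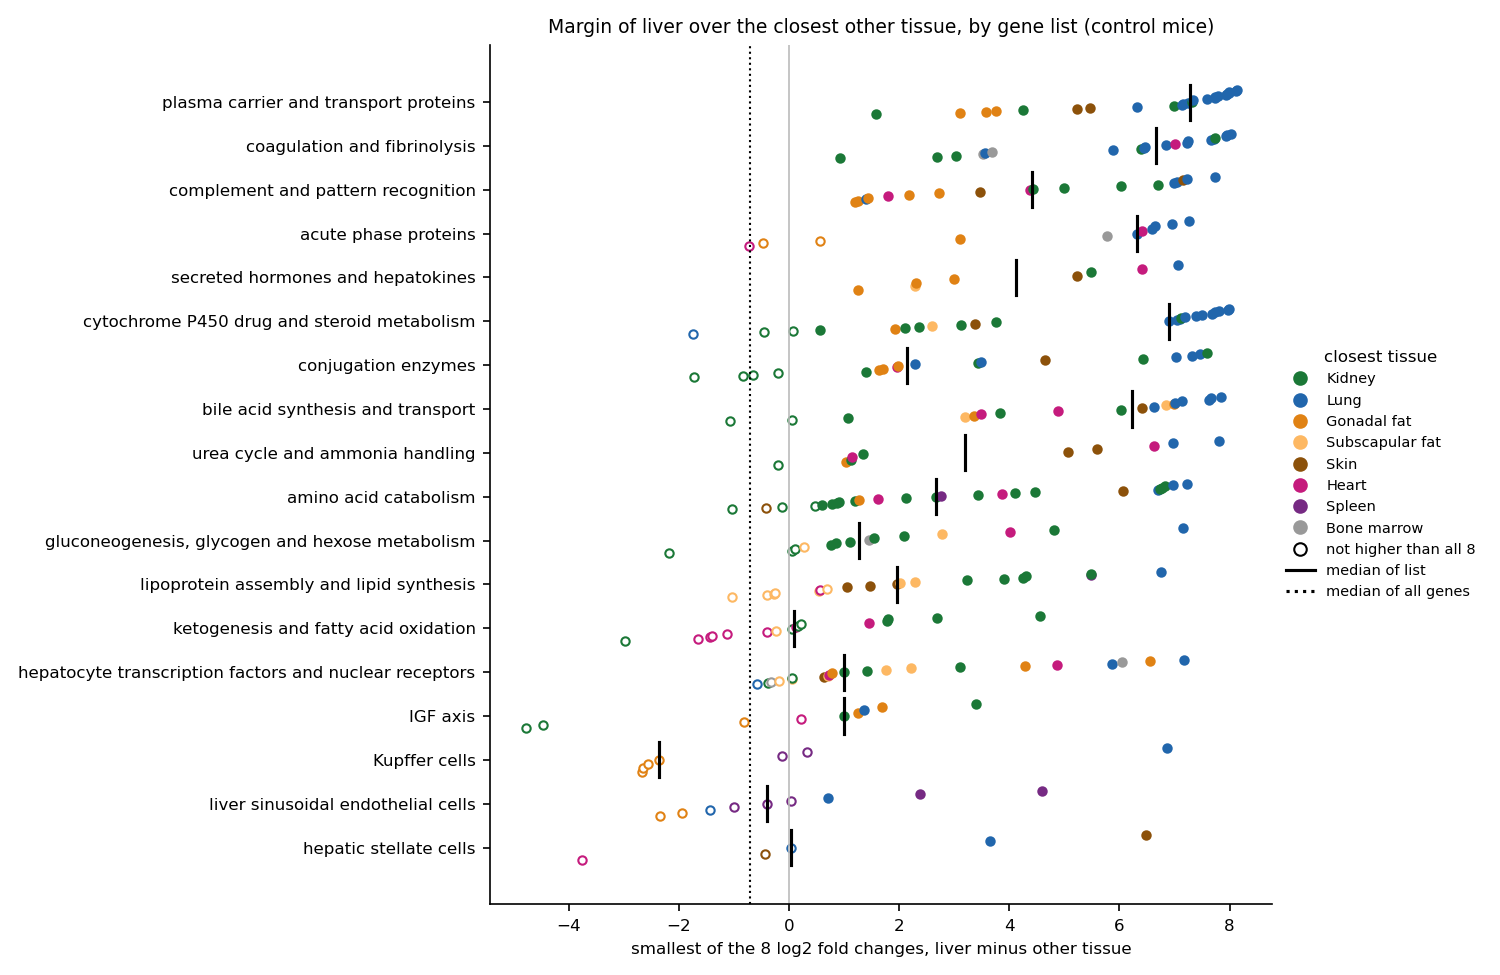
Smallest of the 8 log2 differences, liver minus other tissue, of each tested member of 18 gene lists, coloured by the tissue that is closest, with open points for members that were not higher than all 8 tissues. A bar marks the median of each list, from 7.28 for plasma carriers to -2.36 for Kupffer cell genes, and the dotted line marks the median of all 8271 genes at -0.70.

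Of 18 genes of ketone formation and fatty acid oxidation 16 were tested, 5 were higher in liver than in all 8 tissues, 2 at least 4-fold, and the median was 0.09, beside 1168 of 8271 genes (14.1%) and a median of -0.70 over all genes. Acaa1b, of the peroxisomal pathway, had 439 to 2449 CPM in liver (median 1248), against 111 to 261 CPM in kidney (median 175), a difference of 2.68 ± 0.29 (edgeR adjusted p = 3.28e-07), with no overlap. Of the mitochondrial enzymes 4 were lower in liver than in heart, with -1.39 ± 0.19 for Acadm, -1.66 ± 0.14 for Acadl, -1.12 ± 0.17 for Acadvl and -1.43 ± 0.19 for Hadha, all called. Others did not pass against heart: the difference was 0.13 ± 0.18 for Acat1 (edgeR adjusted p = 0.549) and, for Acaa2, a thiolase outside the list, 0.25 ± 0.19 (edgeR adjusted p = 0.245). Acadm, which acts on fatty acids of medium length, had 179 to 591 CPM in liver, against 477 to 1627 CPM in heart.

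Lipoprotein genes were liver genes, while several enzymes of fatty acid synthesis were not called against subscapular fat. In the joint list 19 of 20 genes were tested, 12 were higher in liver than in all 8 tissues, 9 at least 4-fold, with a median of 1.96. Lcat, Lipc and Mttp, which act in building or remodelling lipoproteins, were 6.76 ± 0.32 above lung, 5.49 ± 0.17 above spleen and 3.91 ± 0.14 above kidney. Fasn, fatty acid synthase, had 3795 to 18922 CPM in liver (median 7957), against 2095 to 42400 CPM in subscapular fat (median 8188), a difference of -0.27 ± 0.46 (edgeR adjusted p = 0.637). Acaca (-0.25 ± 0.37), Acly (0.69 ± 0.43) and Scd1 (0.55 ± 0.34) were not called against that tissue either, whereas Elovl6, which lengthens palmitate, was 2.02 ± 0.60 above it (edgeR adjusted p = 0.00832).

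Of the insulin-like growth factor axis, on which PAPP-A acts, 9 of 15 genes were tested, 5 were higher in liver than in all 8 tissues and 2 were lower, against 1 higher and 2 lower when scaled to whole libraries. Igf1, the growth factor that liver supplies to blood, had 426 to 981 CPM in liver (median 764), against 246 to 364 CPM in gonadal fat (median 317), a difference of 1.26 ± 0.12 (edgeR adjusted p = 5.46e-08). No library of the 2 tissues overlapped. Igfals, which holds Igf1 in its large plasma complex, was 1.69 ± 0.16 above gonadal fat, and the binding proteins Igfbp1, Igfbp2 and Igfbp4 were 3.40 ± 0.26 above kidney, 1.37 ± 0.13 above lung and 1.00 ± 0.13 above kidney. Scaled to whole libraries the difference was 0.22 for Igf1, 0.66 for Igfals, 0.42 for Igfbp4 and -0.18 for Igfbp2, and none of these 4 was called. The growth hormone receptor Ghr was lower in liver than in gonadal fat (-0.82 ± 0.21, edgeR adjusted p = 0.00186). Igf1r, the receptor of Igf1, had 7.06 to 35.7 CPM in liver (median 14.4), against 278 to 441 CPM in kidney (median 360.3), and its smallest deficit was -1.69 ± 0.19, against gonadal fat. Igfbp5 had 2.02 to 77.6 CPM in liver, against 319.6 to 664 CPM in kidney. Pappa itself had 0 to 6.45 CPM in liver and was not tested in all comparisons, and Pappa2 was at 0 in 12 livers.

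Secreted hormones and hepatokines beyond these were liver genes where they could be tested: of 15 genes 8 were tested and 8 were higher in liver than in all 8 tissues, 7 at least 4-fold, with a median of 4.12. Agt, the source of angiotensin, had 618 to 847 CPM in liver and was 3.00 ± 0.24 above gonadal fat. Lect2, a chemotactic hepatokine, was 7.06 ± 0.34 above lung, and Angptl8, a secreted regulator of triglyceride use, was 2.28 ± 0.41 above subscapular fat. Thpo, Fgf21 and Gdf15 did not pass the filter on low counts in all comparisons, with highest levels of 16.1, 115 and 23.2 CPM in liver.

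Of genes that mark the portal end of the liver lobule 8 of 14 tested were higher in liver than in all 8 tissues, and of those of the central end 9 of 11. These were 8 of 14 and 6 of 11 when scaled to whole libraries. The periportal genes that missed were Pck1, G6pc and Ass1, Cyp2f2, Hal and Ctsc. The pericentral genes that missed were Cldn2, a tight junction protein with 85.5 to 260.4 CPM in liver and a mean of 451 CPM in kidney (-1.32 ± 0.12), and Tbx3 (-0.58 ± 0.16 against lung). Glul, which makes glutamine in the cells around the central vein, had 1220 to 2407 CPM in liver and was 1.04 ± 0.13 above gonadal fat. Gulo and Rgn, of vitamin C synthesis and its neighbour step, were 7.38 ± 0.41 above lung and 7.13 ± 0.23 above skin.

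Marker genes of other liver cells are set beside all genes tested, of which 1168 of 8271 (14.1%) were liver genes. The Kupffer cell genes, 1 of 7, were near that share. The median smallest difference over all genes was -0.70. It was -2.36 for Kupffer cells, -0.40 for sinusoidal endothelium and 0.03 for stellate cells. Of 7 tested Kupffer cell genes 1 was a liver gene, Clec4f, a lectin of these resident macrophages, which had 97.8 to 174 CPM in liver (median 119.8), against 0 to 3.07 CPM in lung (median 0.76), a difference of 6.86 ± 0.23 (edgeR adjusted p = 3.8e-14). General macrophage genes were lower than in gonadal fat, with -2.36 ± 0.29 for Adgre1 and -2.65 ± 0.23 for C1qa. Of 9 tested genes of sinusoidal endothelium 3 were liver genes, Oit3 (4.59 ± 0.23 over spleen), Clec4g (2.38 ± 0.23 over spleen) and Flt4 (0.70 ± 0.17 over lung), and Stab2 was not called against spleen (0.04 ± 0.21, edgeR adjusted p = 0.862). Of 5 tested stellate cell genes 2 were liver genes, the matrix protein Reln, with 263 to 503 CPM and 3.65 ± 0.14 above lung, and Colec10, 6.48 ± 0.27 above skin. Other members went the other way, with a smallest difference down to -3.76 among the 5 stellate cell genes and -2.35 among the 9 of sinusoidal endothelium. Bile duct genes were scarce: of 10 genes 1 was tested, Krt19 had 0 to 10.3 CPM and Spp1 22.8 to 140.2 CPM.

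The tissue that came closest to liver was most often kidney. It was the closest for 421 of the 1168 liver genes (36%), followed by lung (194), gonadal fat (146), skin (113), heart (99), subscapular fat (81), spleen (63) and bone marrow (51). Among the 392 genes with a 4-fold margin lung was the closest for 131 (33.4%) and kidney for 114 (29.1%). Without the 3 libraries that held the most fibrinogen transcripts, lung was the closest for 117 of 391 (29.9%) and kidney for 119 (30.4%). In lung the median level of Alb, Cps1 and Fgb was 0.594%, 0.631% and 0.602% of that in the same mouse's liver. What part such a shared low level had in the margins over lung, and in lung being closest, was not tested. A further 657 genes were higher in liver than in 7 tissues, and the tissue they missed was kidney for 229, skin for 101, heart for 95, subscapular fat for 61, gonadal fat for 52, bone marrow for 46, spleen for 37 and lung for 36. Of the 229 held back by kidney 86 were lower in liver than in kidney.

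At the edge of the rule stood genes with small margins. The smallest that were called were Fam160b1 (0.21 over bone marrow), Mib1 (0.24 over lung), Ssr1 (0.24 over gonadal fat), Caprin1 (0.24 over kidney), Atf4 (0.25 over bone marrow) and Mthfd1 (0.26 over kidney). Just outside it, higher in 7 tissues and not called in the last, stood Acly (0.69), B3gnt8 (0.68), Aldh1a1 (0.60), Acsm3 (0.59), Me1 (0.59) and Hp (0.56). Scaled to whole libraries, each of the 6 inside turned negative, with -0.33 for Mthfd1 over kidney and -1.31 for Mib1 over lung at the ends of the range. These calls were also lost, with the sign kept, in 3 (Mthfd1) to 10 (Fam160b1) other alternatives, such as DESeq2 for Fam160b1 (0.17, DESeq2 adjusted p = 0.0877) and no filter on low counts for Caprin1 (0.24, edgeR adjusted p = 0.282).

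Genes lower in liver than in every other tissue included the counterparts of liver enzymes. Pkm, the pyruvate kinase of muscle and most other tissues, had 13 to 46.4 CPM in liver (median 38.4), against 137 to 327 CPM in kidney (median 191), which was the closest tissue (-2.53 ± 0.14, edgeR adjusted p = 2.79e-11), and 682 to 1461 CPM in heart. Hexokinase 1 (Hk1) had 1.63 to 19 CPM in liver, against 32.4 to 57.6 CPM in gonadal fat, its closest tissue (-2.29 ± 0.18), and the platelet form of phosphofructokinase, Pfkp, had 4.89 to 19.3 CPM in liver, against 28 to 60.8 CPM in kidney (-2.31 ± 0.15). The other genes furthest below all tissues were the ceramide synthase Cers5 (-2.31 ± 0.23, heart), the motor Myo5a (-2.30 ± 0.23, heart), the repressor Trps1 (-2.26 ± 0.18, heart) and the AMP deaminase Ampd3 (-1.97 ± 0.27, spleen).

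The sexes differed in many of these genes. Between female and male control livers, a contrast on which the choice of liver genes did not rest, 905 of 9142 genes (9.9%) were higher in females and 808 (8.84%) higher in males by edgeR's quasi-likelihood test. Of the 1168 liver genes 64 (5.48%) were higher in females and 269 (23%) higher in males, against 53 and 228 without female mouse 4. Leaving out each control mouse in turn gave 46 (without mouse 3) to 73 (without mouse 22) higher in females. For males it gave 201 to 312, without the same mice. Usable counts were 479445 to 1916152 in female and 944268 to 2191487 in male livers, and their part in the result was not tested. The sex labels matched the libraries, with Xist at 1659 to 3456 CPM in females and 0 to 4.89 CPM in males.

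Of 29 genes known for higher levels in female mouse liver, 26 were tested and 23 were higher in females, with a median difference of 5.04 on the log2 scale against 0.03 for all genes. Cyp3a41a, a steroid hydroxylase, had 778 to 3386 CPM in females (median 2444), against 0 to 1.15 CPM in males (median 0), where 2 counts were read in 6 libraries. Cyp2c40 had 271 to 877 CPM in females (median 652), against 8.07 to 36.3 CPM in males (median 16.6), a difference of 5.20 ± 0.30. Cyp2b9 had 365 to 533 CPM in females (median 505), against 4.89 to 168 CPM in males (median 36.1), a difference of 3.30 ± 0.43 (edgeR adjusted p = 9.74e-05). The sexes did not overlap in any of these 3 genes. Cyp4a10 went the other way and was higher in males (-0.59 ± 0.19, edgeR adjusted p = 0.0417), and Abcd2 and Lifr were not called.

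Of 26 genes known for higher levels in male mouse liver, 20 were tested and 17 were higher in males, with a median difference of -3.51. Cyp2d9, a testosterone hydroxylase, had 11.1 to 32.7 CPM in females (median 20.4), against 1109 to 1466 CPM in males (median 1295), a difference of -5.74 ± 0.21 (edgeR adjusted p = 3.78e-11). Mup20, the urinary pheromone protein darcin, had 12.7 to 167 CPM in females (median 44.7), against 3779 to 5945 CPM in males (median 4324), a difference of -6.14 ± 0.44 (edgeR adjusted p = 1.06e-07). Elovl3, which lengthens fatty acids, had 0 to 2.59 CPM in females, against 191 to 382 CPM in males. In none of them did the sexes overlap. Cyp4a12a had no count in 6 female livers and a mean of 217 CPM in males, which puts females at least 315-fold lower (3 counts over the group).

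**Figure D4:**
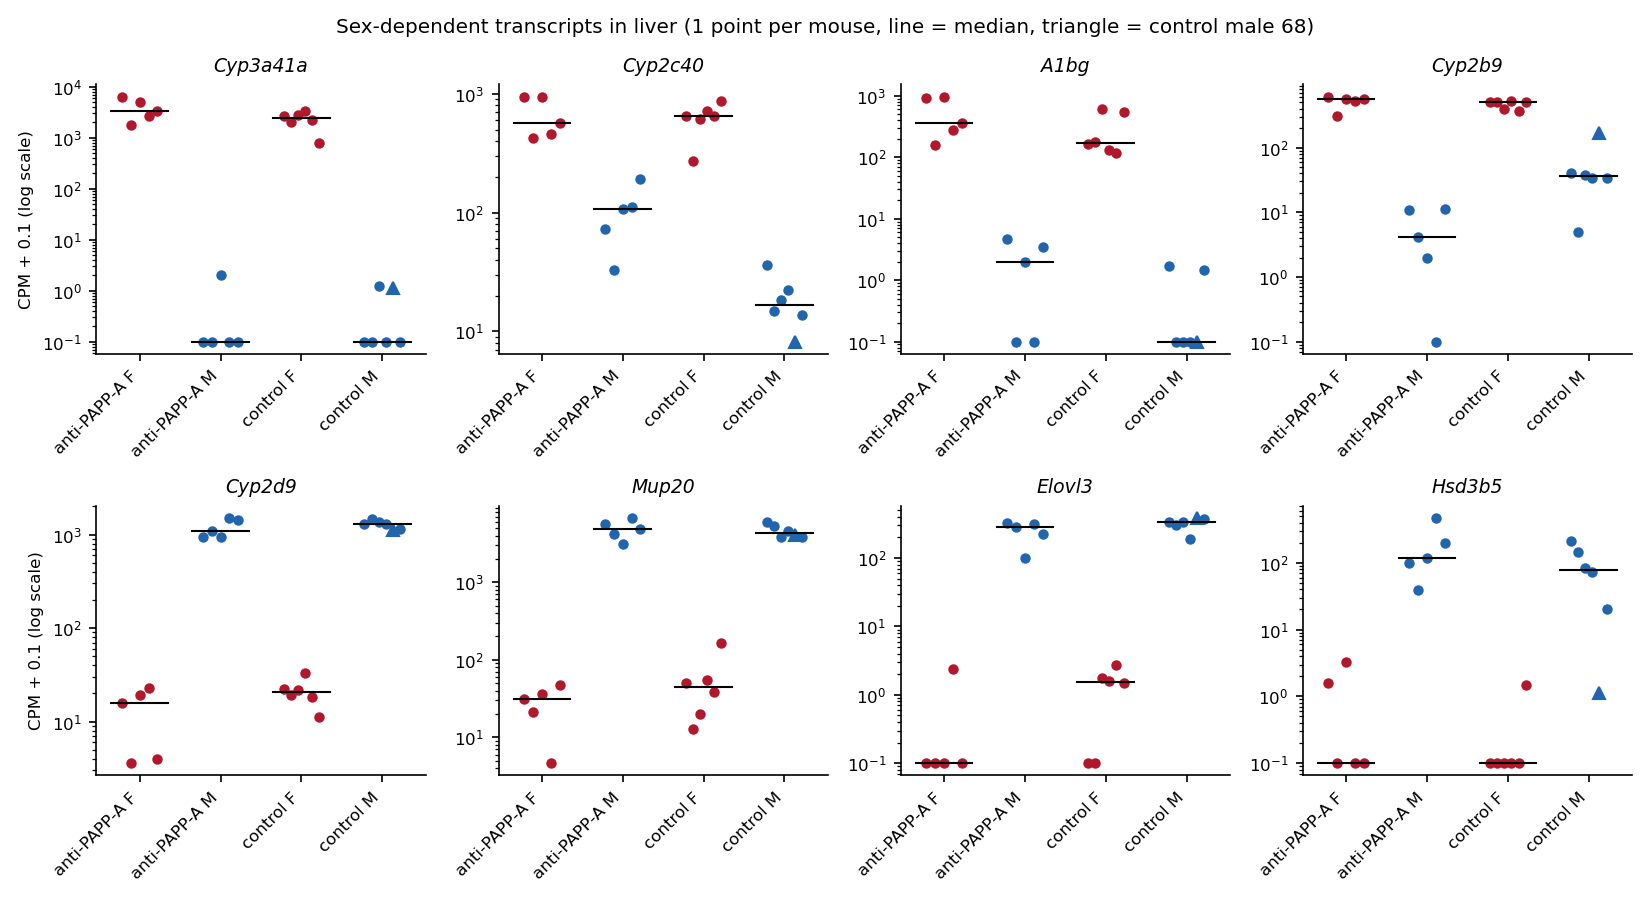
Liver levels of 8 genes in anti-PAPP-A females, anti-PAPP-A males, control females and control males, in CPM plus 0.1 on a log axis, with 1 point per library and a triangle for control male 68. Cyp3a41a, Cyp2c40, A1bg and Cyp2b9 are high in females of both treatments and Cyp2d9, Mup20 and Elovl3 in males, and control male 68 has 1.01 CPM of Hsd3b5 where the other control males have 20.5 to 209 CPM.

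Several functional groups had more calls toward males than toward females. So had the liver genes as a whole, with 23% higher in males and 5.48% in females, against 8.84% and 9.9% of all genes tested. The counts without female mouse 4 are given beside those with it. Of 20 complement genes tested for sex 10 were higher in males and 0 in females (9 and 0 without mouse 4), among them C6 (-2.93 ± 0.31), C8a (-2.20 ± 0.27), C8b (-1.56 ± 0.33) and C9 (-1.19 ± 0.23) of the membrane attack complex. C8a had 113 to 478 CPM in females (median 176), against 846 to 1330 CPM in males (median 1113), and the sexes did not overlap. Likewise 11 of 18 fatty acid oxidation genes, 12 of 21 conjugating enzymes and 8 of 25 amino acid genes were higher in males and 0 in females, and without mouse 4 these were 10, 12 and 7. Oat, an ornithine aminotransferase, had 193 to 527 CPM in females (median 325), against 1343 to 2376 CPM in males (median 1593), a difference of -2.08 ± 0.22 (edgeR adjusted p = 8.02e-06). Tdo2 had 241 to 715 CPM in females, against 1205 to 2046 CPM in males. Bile acid genes were higher in males in 9 of 21 and in females in 1, Slco1a4, and P450 genes in 12 of 26 and in 3, against 8 and 1 and 10 and 3 without mouse 4. The serum amyloid gene Saa2 had 15.8 to 114 CPM in females, against 166 to 494 CPM in males (-2.55 ± 0.36, edgeR adjusted p = 0.000245).

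Among lipid genes more were higher in females. Of 20 genes 8 were higher in females and 2 in males (8 and 1 without mouse 4), among the 2 Apob (-0.67). Of all genes tested 9.9% were higher in females and 8.84% in males. Leaving out single mice lowered the lipid genes to 6 and 1, as without mouse 3, and gave 8 and 3 without mouse 18. Pnpla3, a lipid droplet protein, had 65.3 to 518 CPM in females (median 466), against 32.2 to 81.8 CPM in males (median 77.8), a difference of 2.71 ± 0.40 (edgeR adjusted p = 0.000372), and 1 female lay within the male range. Elovl6 had 1338 to 7012 CPM in females, against 479 to 1288 CPM in males, a difference of 2.05 ± 0.40 (edgeR adjusted p = 0.00308), with no overlap. Fasn (1.27 ± 0.33) and Acaca (1.26 ± 0.30) were called with overlapping ranges, as was the carbohydrate sensor Mlxipl (1.32 ± 0.26), 1 of 5 transcription factors higher in females. None of the 14 genes of glucose metabolism was called for sex.

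Because the filter asked for counts in most livers, genes of 1 sex could fail it. With a filter by tissue and sex, chosen after seeing the data, 1462 genes were higher in liver than in all 8 tissues, and the 1168 were all among them. Of the rest 222 had not been tested before, 141 of them with an official symbol. They included Cyp3a41a (smallest difference 7.83, lung), Mup20 (7.78, gonadal fat), Cyp2b9 (7.15, kidney), Saa1 (7.12, gonadal fat), Hamp2 (6.87, lung) and Fgf21 (5.52, subscapular fat). Members of the Mup, Cyp3a and Cyp2b families are near-identical copies, and counts may have been divided among them.

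In anti-PAPP-A mice, whose libraries the choice of liver genes did not use, 948 of 7395 genes (12.8%) were higher in liver than in all 8 tissues, 302 of them (4.08%) at least 4-fold. Of the 1168 liver genes of control mice 952 could be tested there and 866 (91%) were called again. All 295 genes with a 4-fold margin that could be tested were called, 288 of them at 4-fold or more. Of the genes lower in all 8 tissues 316 could be tested there and 173 (54.7%) were called again, where 3.02% of all genes tested were called lower.

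The sex calls of control liver had the same direction in anti-PAPP-A liver in 1501 of 1572 genes, and 227 were called in both, where 102 of 8272 genes (1.23%) were higher in females and 166 (2.01%) in males. Of the 2 sex lists 18 of 21 female genes were higher in anti-PAPP-A females and 22 of 23 male genes in anti-PAPP-A males. A test of whether the sex difference itself differed between anti-PAPP-A and control mice called 0 of 10829 genes by edgeR, with 366 at an unadjusted p below 0.05.

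Some liver genes varied widely between control mice of 1 sex. Among liver genes with a mean of at least 10 CPM, the median SD within sex was 0.30 on the log2 scale, and the 8 most variable were Upp2 (1.06), Igfbp1 (1.06), Mup19 (1.04), Serpina1e (1.02), Gstm3 (0.99), Apoa4 (0.92), Saa2 (0.83) and Nop9 (0.82). Igfbp1, a binding protein that fasting is known to raise, had 133 to 568 CPM in females (median 233), against 26.4 to 335 CPM in males (median 51.5). Apoa4, an apolipoprotein, had 329 to 1308 CPM in females, against 1129 to 8716 CPM in males. Upp2, a uridine phosphorylase, had 58.8 to 402 CPM in females, against 26.2 to 253 CPM in males. The males of the highest Igfbp1 and Apoa4 and of the lowest Upp2, Mup19 (842 CPM) and Serpina1e (609 CPM) were 1 animal, mouse 68.

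**Figure D5:**
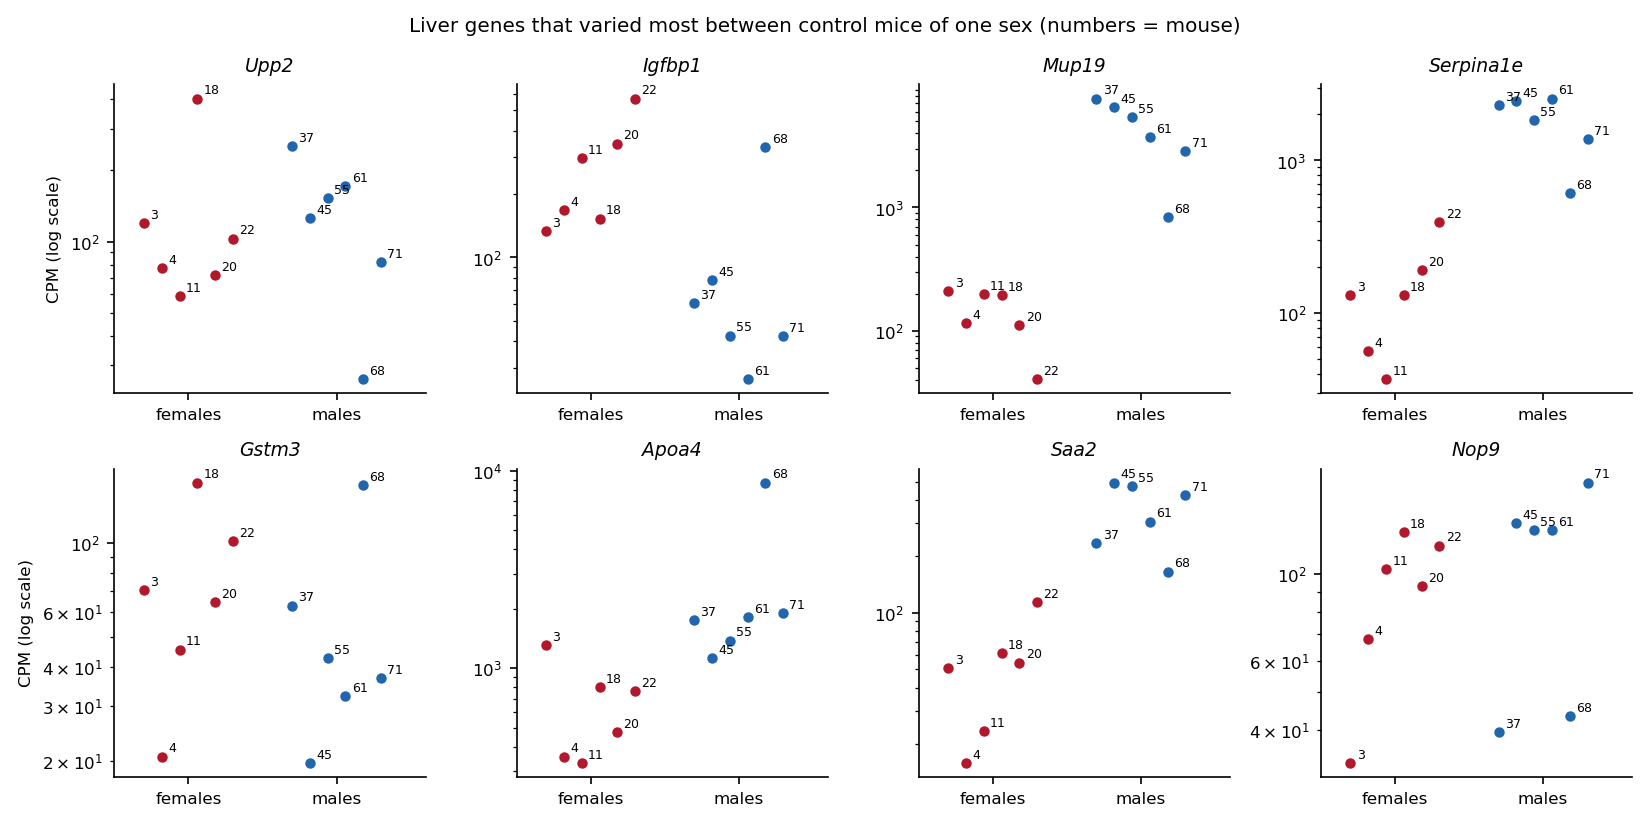
Levels of the 8 most variable liver genes in control livers, females left and males right, in CPM on a log axis, with the number of the mouse beside each point. Mouse 68 is the highest male for Igfbp1 (335 CPM), Apoa4 (8716 CPM) and Gstm3 (153 CPM) and the lowest for Upp2 (26.2 CPM), Mup19 (842 CPM), Serpina1e (609 CPM) and Saa2 (166 CPM).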

How the data were processed

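RNA-seq counts per gene were analysed for 9 tissues of control and anti-PAPP-A mice. The authors deposited whole-number counts. Per the labels' protocols, stranded libraries were prepared from total RNA, with an input of 100 ng and amplification over 12 cycles. FastQC 0.11.5, Salmon and the build mm10 are named in the submitters' processing notes, whereas annotation, strand setting and rounding were not given in the sources used here. Groups came from the labels, and liver was paired with the other tissues by mouse, since same-numbered libraries come from the same animal.

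For the CPM, the 9 most abundant features were left out of the library sizes, and TMM factors were computed from the rest. These CPM therefore need not sum to 1000000. The tests kept the 9 features in the library sizes, in the filter on low counts and in the TMM factors. Genes were kept by filterByExpr on tissue and tested with edgeR 4.0.16 (quasi-likelihood, mouse as block, R 4.3.3) with Benjamini-Hochberg adjustment at 0.05. Each SE was worked back from the test, as the size of the log2 difference divided by the square root of the F statistic. The alternatives used DESeq2 1.42.0 and limma 3.58.1. Figures were drawn with matplotlib 3.10.9. Gene locations are from GENCODE vM21.

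Genes named are members of the 33 lists, genes with the smallest and largest margins, the strongest sex calls and the most variable liver genes. A few genes outside these rules were chosen after their values were seen. The members and lists were chosen with earlier results of these data known. Limits for a count of 0 use 3 counts and cover counting error only. Of the anti-PAPP-A libraries, the heart of mouse 56, gonadal fat of mouse 58 and skin of mouse 36 were left out for low levels of their tissue's markers. The models were tested on simulated data. Some genes of the lists are not reported here.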

Additional observations from a re-analysis of the deposited data

Results flagged for a closer look

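Among 48 groups of control livers of 1 sex, 9 held a library far from the rest by the ratio of its gap to the range of the group. Chance marks about 1 in 20 groups of normally distributed values, in genes not chosen for their spread. The rule was applied to CPM without a log, and where counts are few that rate need not hold. Apoa4, Igfbp1, Gstm3 and Upp2 were chosen as the most variable within a sex, so the number marked here is not set against that rate. Cyp2b13 had 1.15 CPM in male 55 and 0 in the other males, which rests on 1 count. In male 68 Cyp2a4 had 15.1 CPM, against 0 to 2.3 CPM in the other males. The same animal had 8716 CPM of Apoa4, against 1129 to 1903 CPM, 335 CPM of Igfbp1, against 26.4 to 78.3 CPM, and 153 CPM of Gstm3, against 19.6 to 62.9 CPM.

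In females, Hamp2 had 368 CPM in mouse 11, against 116 to 202 CPM in the others, and Mup20 had 167 CPM in mouse 22, against 12.7 to 54.9 CPM. Upp2 had 402 CPM in mouse 18, against 58.8 to 119.9 CPM, and Cyp2u1 had 3.17 CPM in mouse 4, against 10.4 to 13.4 CPM.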

How the results depend on the processing

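The 1168 liver genes became 1177 with DESeq2, 1192 with limma-voom, 1169 with RLE scaling and 1668 with no filter, and without the replicate block, that is without pairing by mouse, they became 1157, of which 1130 were shared. Scaled to library totals 437 were called, and 659 were called at a limit of 2-fold. With no filter, where more genes were tested, 688 genes had a 4-fold margin. A joint fit over all tissues called 694 of 17937 tested genes lower than all 8, beside 332 of 8271 in the main fit. Leaving out each mouse gave 1121 to 1224 liver genes, 285 to 344 lower genes and 391 to 408 with a 4-fold margin.

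In the joint fit the genes lower in liver were 4804 against kidney, 5934 gonadal fat, 5939 subscapular fat, 6218 skin, 5565 heart, 6621 spleen and 7092 bone marrow, and those higher were 5552 against skin and 6692 bone marrow. Library totals gave 862 genes higher against kidney, 1052 gonadal fat, 1169 subscapular fat, 1703 skin, 1049 lung, 1333 heart, 1669 spleen and 1749 bone marrow, and 6440 lower against gonadal fat, 6068 subscapular fat and 9176 lung. With no filter 5291 were lower against kidney, 6198 gonadal fat, 5067 subscapular fat, 6495 skin, 7057 lung, 6177 heart, 7329 spleen and 8978 bone marrow, and 6158 were higher against skin, 6558 spleen and 7644 bone marrow. Liver genes higher in females were 37 with no filter. The joint fit tested 17937 genes against all 8 tissues, where the main fit tested 8271, and no filter also let in more genes. In both, the counts against each tissue are of larger sets of genes. Library totals leave out the TMM factors. What part each of these had in the shifts was not tested.

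Library totals turned the sign of Fam160b1 (-0.87), Mib1 (-1.31), Ssr1 (-0.81), Caprin1 (-0.35), Atf4 (-0.83), Mthfd1 (-0.33) and Igfbp2 (-0.18). Of the other values of single genes 1406 kept direction and call and 51 lost the call. Leaving out each mouse gave 1258 (without mouse 3) to 2061 (without mouse 22) sex calls in control liver. Usable depth, from 479445 counts, limits what can be said of genes with few counts.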
